A study of Mus musculus with 3 samples.

Results

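The genes described here encode the machinery that licenses replication origins and copies DNA at the fork. They were taken from a list of 44 mouse genes, and every probe set annotated to 1 of these symbols alone was read. On the arrays 43 of the 44 genes had such probe sets, 93 in all among 45037 that were not controls. Chaf1a, the large subunit of chromatin assembly factor 1, is not analysed here, and 1 further probe set that names Orc4 together with another gene was not used.

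The cells were follicular regulatory T (Tfr) cells, which express Foxp3 and restrain the germinal centre reaction, sorted from spleens of C57BL/6 mice 8 days after OVA immunization. The Rptor-null group came from mice with a floxed Rptor gene and CD4-Cre, which deletes it across the T cell lineage and not in Tfr cells alone, and consisted of 2 pools of 8 mice, each on its own array. The WT group was 1 pool of 4 wild-type mice on 1 array, so WT values have no replicate error. Rptor encodes raptor, which defines the growth-promoting kinase complex mTORC1, and the comparison asks how Tfr expression differs without it. The labels used here give neither the age nor the sex of the mice, nor whether the WT mice carried Cre, and every value of a group is that of pooled animals.

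Before a cell divides it must copy its genome exactly once. In G1 the origin recognition complex (ORC), Cdc6 and Cdt1 load the Mcm2 to Mcm7 ring onto DNA, and geminin then blocks further loading. In S phase Cdc45 and the GINS complex turn that ring into the moving helicase, and polymerase alpha with primase, then the delta and epsilon polymerases on the Pcna clamp, build the new strands. Many of these genes are targets of E2F transcription factors and are transcribed mostly in cells that are about to enter or are in S phase, while most ORC subunits are made at a steadier rate, so T cells in division express the set far above resting T cells.

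All 43 measured genes were bright enough to be tested, each by its brightest probe set. Of these, 26 were lower in Rptor-null Tfr cells, 0 were higher and 17 did not pass the test (limma across 12725 genes, Benjamini-Hochberg adjusted p with a threshold of 0.05). Over all genes tested 11.1% were lower and 3.93% higher. At an unadjusted p under 0.05, 30 replication genes were lower and 0 higher, where 2761 and 1032 of all 12725 genes were. Both Rptor-null arrays read below WT for 36 of the 43, against 48.7% of all genes, both read above it for 4, and for 3 they fell on opposite sides. The median log2 difference was -0.57 over the 43 genes, on the scale of log2(intensity + 16), and -0.059 over all genes. It was -0.53 in the first Rptor-null pool and -0.57 in the second. All folds given here are ratios of intensity + 16. For dim genes they are therefore smaller than the ratios of the printed intensities. The set was proposed with earlier results of these arrays known, so its counts are a description. In pooled RNA, fewer cells that replicate DNA and less of each RNA per cell cannot be told apart.

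**Figure D1:**
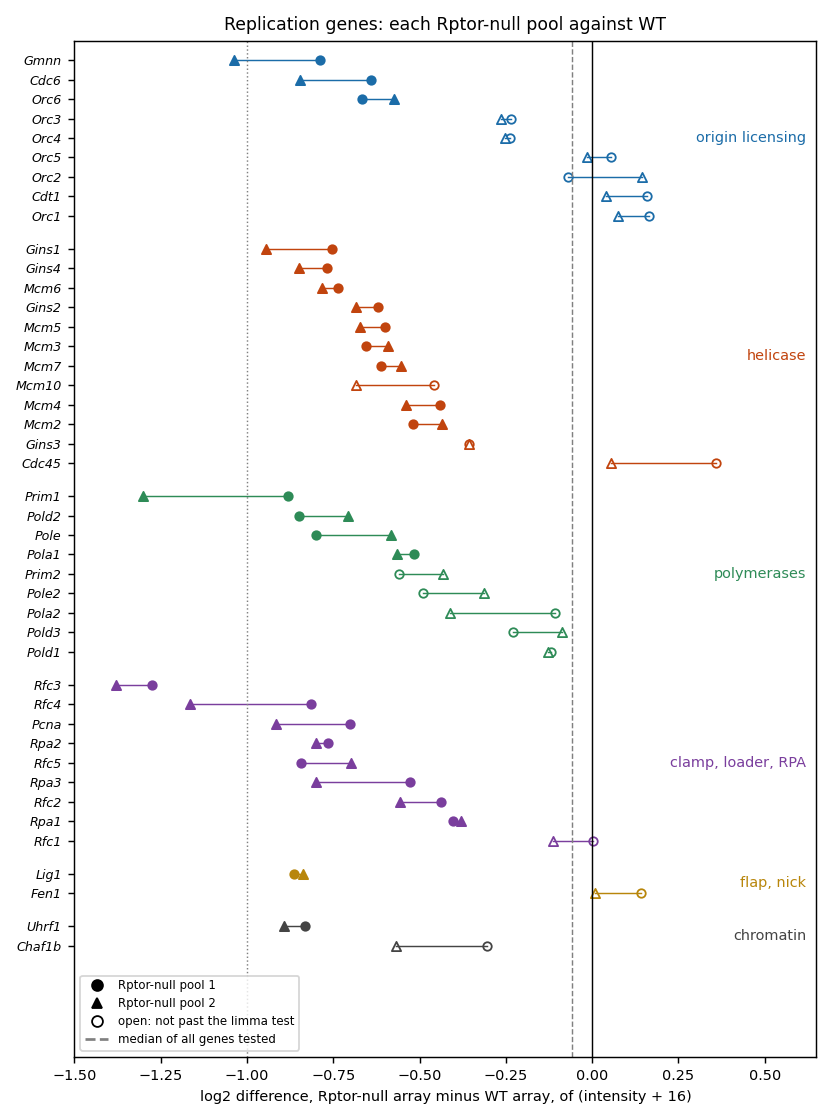
Log2 difference of each Rptor-null array (circle, first pool; triangle, second pool) from the WT array for 43 replication genes, ordered by role down the page; filled symbols passed the limma test. The clamp loader gene Rfc3 lies farthest left, at -1.27 and -1.38, and 36 genes have both symbols left of 0.

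Values that touch every result here concern the arrays and the sort. The 3' to 5' signal ratio of Gapdh was 1.94 and 2.58 on the Rptor-null arrays and 1.11 on the WT array, and that of beta-actin 2.65 and 2.87 against 1.40. T cell markers were present in all pools and were lower in Rptor-null pools for 6 of 10, with 0 higher and a median log2 difference of -0.66; their summed intensity was 33534 and 32903 in Rptor-null pools and 49211 in the WT pool. Markers of regulatory and follicular T cells were lower for 6 of 10, with a median of -0.82, and summed to 14050 and 12194 in Rptor-null pools against 23002 in WT. Foxp3 itself was present in each pool, at 587 and 423 in Rptor-null pools and 752 in WT, and did not pass (adjusted p = 0.079). Macrophage and myeloid markers were higher for 7 of 10 and lower for 0, with a median of 0.82, and summed to 41517 and 46344 against 29857. Every macrophage marker measured had passed the filter on dim signal (34.8), so a value near 0 was hardly possible. The dimmest, Itgam, read 87.5 and 96.0 in Rptor-null pools and 71.5 in WT. Csf1r, the receptor for macrophage colony-stimulating factor, read 12569 and 14904 against 7911. Of 4 measured natural killer markers 3 were higher and 0 lower, with a median of 0.47. At an unadjusted p under 0.05, 3 were higher and 1 lower. The lower 1 was Ncr1, which read 299 and 285 in Rptor-null pools and 398 in WT. After median centring 1 of the 4 was called lower. B cell markers had 0 calls among 6 (2 lower and 0 higher at an unadjusted p under 0.05), 2 of 6 plasma cell markers were lower (0 after quantile normalization), and of the CD8 T cell genes Cd8b1 was lower and Cd8a did not pass. Among other cells that divide in the spleen, 4 measured germinal centre B cell markers and 4 erythroid markers had 0 calls by limma in either direction, and 0 at an unadjusted p under 0.05, with medians of 0.013 and 0.079. The median of the germinal centre B cell markers turned to -0.032 after median centring. The part of these shifts in the results below was not tested. Of the 43 replication genes 16 lay below the T cell marker median of -0.66. The median of the 43 genes, -0.57, was less low than that of the T cell markers and that of the regulatory and follicular T cell markers, -0.82. These comparisons were not tested.

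**Figure D2:**
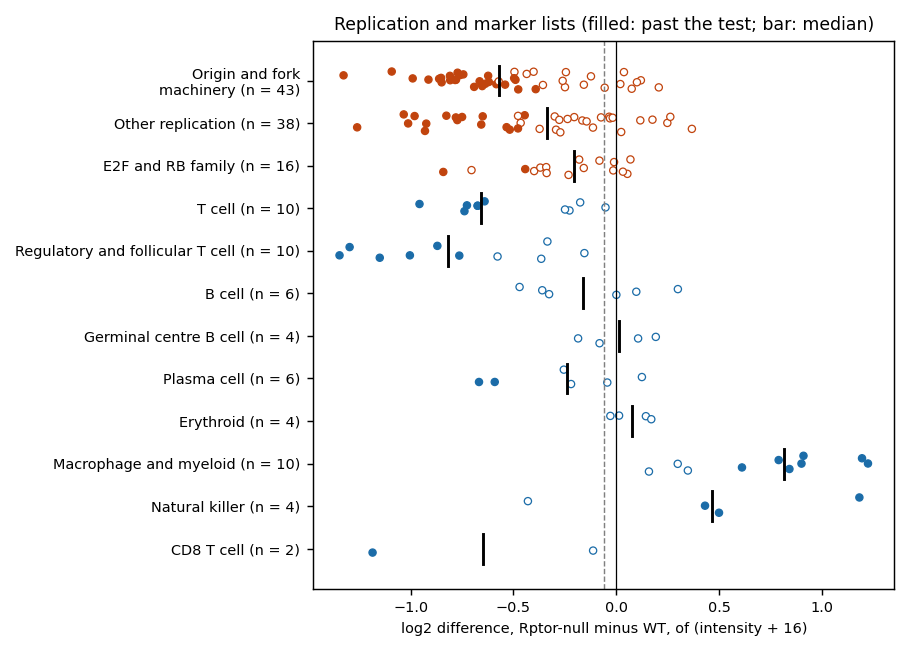
Log2 difference (Rptor-null minus WT) of every measured gene in 3 replication lists (orange) and 9 marker lists (blue), with a bar at each list's median and a dashed line at the median of all genes tested. The origin and fork machinery sits at -0.57, near the T cell markers at -0.66, and the macrophage and myeloid markers sit at 0.82.

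The offset between arrays depended on brightness. When all genes were cut by level into 5 equal bins, those outside the set had median log2 differences, dimmest bin first, of 0.077, -0.0013, -0.14, -0.15 and -0.12. No replication gene fell in the dimmest bin, and in the other 4 the replication genes had medians of -0.44, -0.65, -0.64 and -0.49. In those bins 2 of 9, 8 of 11, 9 of 14 and 7 of 9 replication genes were lower, where 4.73%, 10%, 16.6% and 21.8% of the other genes were. After quantile normalization, which gives the arrays the same distribution of values, 16 of the 43 genes stayed lower and 0 were higher, with a median of -0.48. Of all 12725 genes 698 were then lower and 524 higher, with a median of -0.0079.

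**Figure D3:**
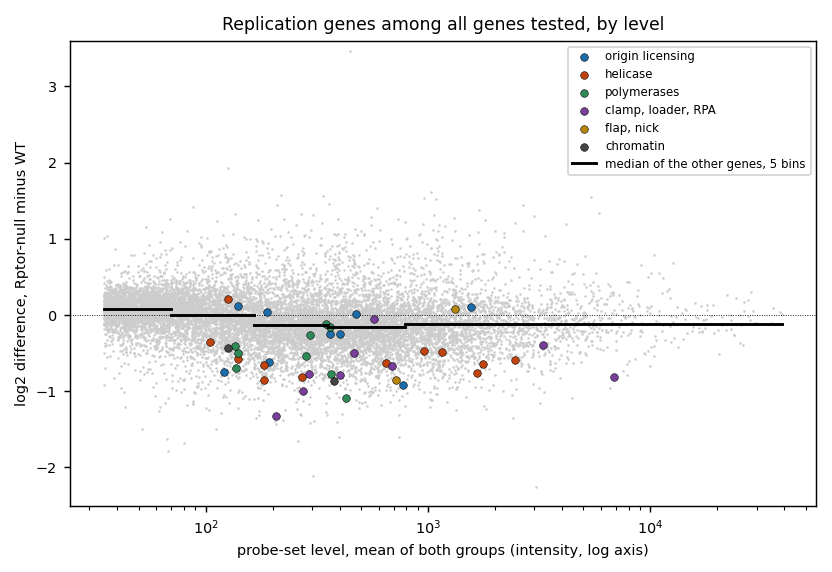
Log2 difference (Rptor-null minus WT) against probe-set level on a log axis for all 12725 genes (grey) and the 43 replication genes by role (colours); black bars are medians of the other genes in 5 level bins. Replication genes are found from the second bin to the brightest, with medians between -0.65 and -0.44 in those bins.

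Of the origin licensing genes, geminin, Cdc6 and the ORC subunit Orc6 were lower, while Orc1 to Orc5 and Cdt1 did not pass the test: 3 of 9 licensing genes were lower and 0 higher, with a median of -0.24 (-0.13 after quantile normalization). Gmnn, geminin, the inhibitor of Cdt1, read 612 and 513 in Rptor-null pools and 1069 in WT. Both Rptor-null values lay well under the WT value, 1.88-fold lower on average (log2 difference -0.91 ± 0.14 SE, adjusted p = 0.0073). Cdc6, the ATPase that joins ORC to load the ring, read 97.6 and 82.3 in Rptor-null pools and 161 in WT, 1.67-fold lower (adjusted p = 0.027). Orc6, the smallest ORC subunit, read 147 and 158 against 243 in WT, 1.54-fold lower (adjusted p = 0.035). The calls of Cdc6 and Orc6 were lost after quantile normalization, and that of Gmnn was not.

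The remaining ORC subunits were close to WT. Orc1, the subunit whose protein level cycles in mammalian cells, read 152 and 142 in Rptor-null pools and 134 in WT (log2 difference 0.12 ± 0.16 SE). Orc2, Orc3, Orc4 and Orc5 had log2 differences between -0.25 and 0.037, and for Orc2 and Orc5 the Rptor-null arrays stood on opposite sides of WT. Several probe sets of Orc2, Orc3 and Orc4 also lay on both sides of WT. Cdt1, the loader of the Mcm ring, read 1688 and 1553 in Rptor-null pools and 1509 in WT on its brightest probe set, a log2 difference of 0.10 ± 0.10 (SE). Its other kept probe set read 336 and 379 against 490, a log2 difference of -0.44 ± 0.14 (SE), and neither passed, so the array gives no direction for Cdt1.

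**Figure D4:**
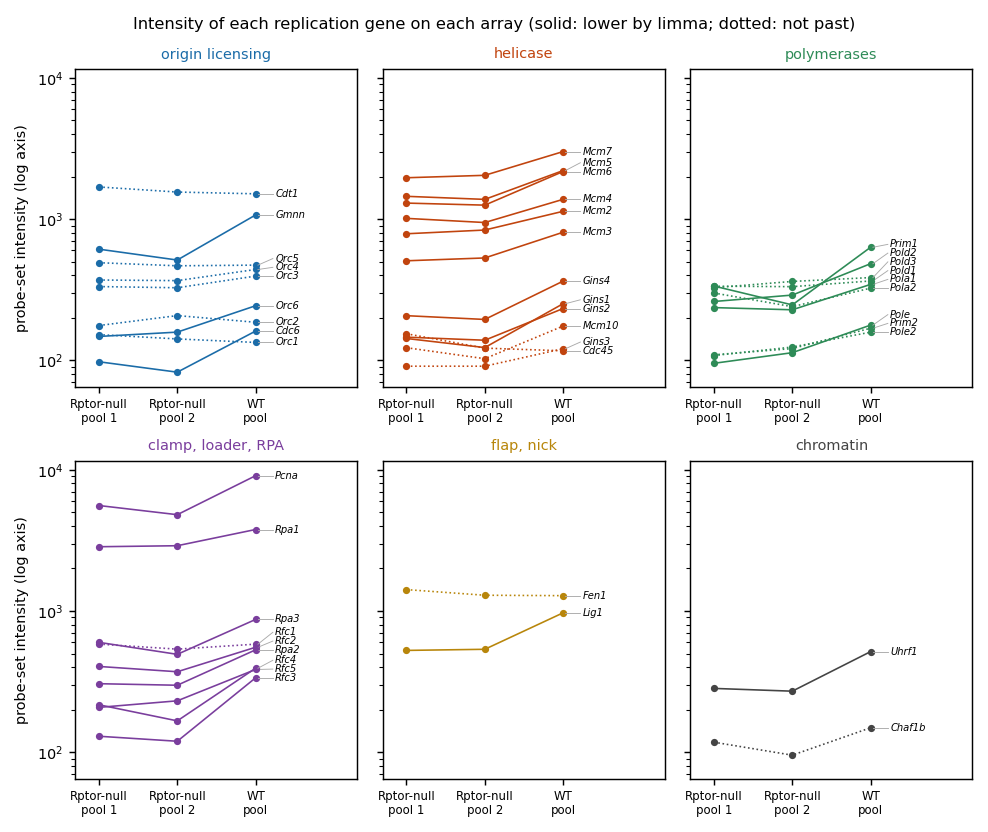
Probe-set intensity (log axis) of the 43 genes on the Rptor-null and WT arrays, in a panel per role; solid lines join the values of genes lower by limma and dotted lines those that did not pass. Intensities of different probe sets are not comparable as amounts, so each line is read along its own course: Gmnn, Prim1 and Rfc3 drop steeply in both Rptor-null pools, while Orc5 and Rfc1 are flat.

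Of the helicase genes 9 of 12 were lower and 0 higher, with a median of -0.60: the 6 subunits of the Mcm2 to Mcm7 ring, Gins1, Gins2 and Gins4. After quantile normalization 6 of the 12 were lower, with Mcm2, Mcm4 and Gins2 lost, and the calls of Mcm3 and Mcm4 were lost when probe sets were averaged. Mcm6 read 1297 and 1255 in Rptor-null pools and 2171 in WT, 1.69-fold lower (log2 difference -0.76 ± 0.096 SE, adjusted p = 0.0047). On their brightest probe sets the other 5 ring subunits had log2 differences from -0.64 (Mcm5) to -0.48 (Mcm2), with adjusted p between 0.0076 and 0.027, and both Rptor-null values lay under WT for each. Other probe sets of the ring genes differed in both directions from these values. A probe set of Mcm5 and another of Mcm7 were 2.16-fold and 2.08-fold lower. Some lay near or above WT and did not pass, with log2 differences of -0.087 (Mcm4), -0.054 (Mcm5) and 0.20 (Mcm3). No order is therefore given within the ring.

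Gins1, Gins2, Gins3 and Gins4 form the complex that binds the ring with Cdc45. Gins1 read 143 and 123 in Rptor-null pools and 251 in WT, 1.80-fold lower (adjusted p = 0.016). Gins4 read 207 and 195 against 363 in WT, 1.75-fold lower (adjusted p = 0.012). Gins2 was 1.57-fold lower, and Gins3, at 90.8 in both Rptor-null pools and 121 in WT, did not pass (adjusted p = 0.18). Both Rptor-null values lay under WT for each of these 4 genes. Mcm10, a helicase activator, had a log2 difference of -0.57 ± 0.17 (SE) and did not pass (adjusted p = 0.065).

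Cdc45 was read by 2 kept probe sets that disagreed. The brightest had 154 and 122 in Rptor-null pools and 117 in WT, with a log2 difference of 0.21 ± 0.18 (SE). The other read 88.8 and 86.0 in Rptor-null pools and 136 in WT, with a log2 difference of -0.56 ± 0.17 (SE). Neither passed, and no direction is given for Cdc45.

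Among the polymerase and primase genes 4 of 9 were lower and 0 higher, with a median of -0.50. Prim1, the catalytic primase subunit that makes the RNA primers, read 335 and 247 in Rptor-null pools and 631 in WT. Both pools lay far under WT, the second more so, for a mean difference of 2.13-fold (log2 -1.09 ± 0.18 SE, adjusted p = 0.011). Its other probe set gave 1.83-fold and passed the test across probe sets. Pold2, an accessory subunit of polymerase delta, the lagging strand polymerase, read 261 and 289 against 483 in WT, 1.72-fold lower (adjusted p = 0.012). Pole, the catalytic subunit of the leading strand polymerase epsilon, read 95.2 and 113 against 177, 1.61-fold lower (adjusted p = 0.035), and Pola1, the catalytic subunit of polymerase alpha, was 1.45-fold lower (adjusted p = 0.041). The calls of Pole and Pola1 were lost after quantile normalization and those of Prim1 and Pold2 were not.

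Prim2, Pola2, Pole2, Pold1 and Pold3 did not pass, though both Rptor-null arrays were below WT for each. Pold1, the catalytic subunit of polymerase delta, and its partner Pold3 depended on the probe set. The brightest one of Pold1 read 335 and 332 in Rptor-null pools and 364 in WT, and the other read 108 and 152 against 243. For Pold3 the brightest read 326 and 362 against 385, and a second read 180 and 173 against 318, 1.74-fold lower and past the probe-set test (adjusted p = 0.028). With the mean of its probe sets Pold3 passed the test as a gene, and Pold1 passed when probe sets that can match several transcripts were left out.

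Of the genes of the clamp, its loader and the single-strand binding protein 8 of 9 were lower and 0 higher, with a median of -0.77. After quantile normalization 5 of the 9 were lower, with a median of -0.67, and Rfc2, Rpa1 and Rpa3 were lost. Rfc3, a small subunit of replication factor C, which opens the clamp and closes it around DNA, read 130 and 120 in Rptor-null pools and 336 in WT. It was 2.51-fold lower (log2 difference -1.33 ± 0.15 SE, adjusted p = 0.0042) and was the 1 gene of the set at least 2-fold lower in both Rptor-null arrays, a rule that 0.582% of all genes met, while 0 of the set and 0.393% of all genes were at least 2-fold higher in both. With averaged probe sets 2 genes met it, and in the second Rptor-null pool alone 4 genes did (Rfc3, Prim1, Rfc4 and Gmnn). All genes were not counted under either variant, so the share of 0.582% does not apply to them. Single probe sets of Mcm5, Mcm7 and Rpa2 were also at least 2-fold lower in both arrays. The other probe set of Rfc3 was 1.97-fold lower. Rfc4, a second small subunit, read 217 and 167 against 393 in WT, 1.99-fold lower (adjusted p = 0.013). Rfc5 and Rfc2 were 1.71-fold and 1.41-fold lower, but the probe sets of Rfc2 lay on both sides of WT and its call was lost with their mean. Rfc1, the large subunit found only in the loader of the replication clamp, read 583 and 537 in Rptor-null pools and 582 in WT, and its difference of -0.056 ± 0.12 (SE) turned to 0.063 after quantile normalization. A second Rfc1 probe set read 270 and 216 against 342, a log2 difference of -0.47 ± 0.17 (SE), and did not pass the probe-set test (adjusted p = 0.15). The third kept Rfc1 probe set read 188 and 87.9 in Rptor-null pools and 139 in WT. On it and on the brightest the Rptor-null arrays stood on opposite sides of WT. Only as the mean of both arrays did every kept Rfc1 probe set have a difference below 0. On their brightest probe sets the 4 small subunits, which other clamp loaders also use, fell by 0.50 to 1.33 on the log2 scale. The large one did not pass. This contrast depends on the probe set, and the difference between the subunits was not tested.

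Pcna, the sliding clamp that tethers polymerases and binds many replication enzymes, read 5584 and 4809 in Rptor-null pools and 9082 in WT, 1.75-fold lower (adjusted p = 0.0050). Rpa2, the middle subunit of replication protein A, which coats unwound DNA, read 306 and 298 against 531, 1.72-fold lower (adjusted p = 0.0098). A second Rpa2 probe set read 78.5 and 45.7 against 252, 3.51-fold lower and the largest difference of any kept probe set in the set. Rpa3 and Rpa1, the other subunits, were 1.58-fold and 1.31-fold lower.

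At the steps after synthesis the brightest probe sets split. Lig1, the ligase that seals Okazaki fragments, read 526 and 536 in Rptor-null pools and 971 in WT, 1.80-fold lower (adjusted p = 0.0052). Fen1, the nuclease that trims the flaps before sealing, read 1417 and 1293 in Rptor-null pools and 1284 in WT on its brightest probe set, of a kind that can match several transcripts. Its other probe set read 233 and 194 against 316, a log2 difference of -0.54 ± 0.17 (SE). Neither Fen1 probe set passed, and no direction is given for it.

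Of the chromatin genes, Uhrf1, which binds newly copied, hemimethylated DNA and recruits the methyltransferase Dnmt1, read 283 and 271 in Rptor-null pools and 516 in WT. It was 1.82-fold lower (log2 difference -0.86 ± 0.13 SE, adjusted p = 0.0078), and its other probe set was 2.12-fold lower. Chaf1b, the middle subunit of chromatin assembly factor 1, which places histones behind the fork, read 118 and 95.3 in Rptor-null pools and 149 in WT and did not pass (log2 difference -0.44 ± 0.18 SE, adjusted p = 0.15).

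The promoters of the 4 lower genes with the largest smaller difference of the 2 pools and a promoter entry are printed, to show what genes that were lower together do and do not share before their start sites. Windows of 250 bases upstream of the annotated start, on the coding strand, were taken from RefSeq for GRCm38.p6, and where a gene had several starts the one with most E2F letters was taken, or the first listed. Rfc3 lies at chr5:151651209-151651458 on the minus strand, Prim1 at chr10:128014965-128015214 on the plus strand, Lig1 at chr7:13276925-13277174 on the plus strand, Uhrf1 at chr17:56303087-56303336 on the plus strand and Mcm6 at chr1:128359706-128359955 on the minus strand. Mcm6 was added, after its sequence had been read, because it holds 4 matches. Capitals mark the core of the E2F binding site. It was searched on both strands as TTCCCGC, as the form TTGGCGC, as the form TTCGCGC, and as the form TTGCCGC.
Rfc3: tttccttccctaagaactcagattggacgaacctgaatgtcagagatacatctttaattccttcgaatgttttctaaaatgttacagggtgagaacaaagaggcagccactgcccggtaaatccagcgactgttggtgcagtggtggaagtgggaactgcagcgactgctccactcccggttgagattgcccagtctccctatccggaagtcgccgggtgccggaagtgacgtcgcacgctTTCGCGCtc
Prim1: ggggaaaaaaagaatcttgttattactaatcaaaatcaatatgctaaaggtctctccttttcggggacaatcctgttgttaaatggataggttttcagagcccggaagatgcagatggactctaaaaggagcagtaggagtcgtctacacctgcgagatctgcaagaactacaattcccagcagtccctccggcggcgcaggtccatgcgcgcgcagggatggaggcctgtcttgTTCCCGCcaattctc
Lig1: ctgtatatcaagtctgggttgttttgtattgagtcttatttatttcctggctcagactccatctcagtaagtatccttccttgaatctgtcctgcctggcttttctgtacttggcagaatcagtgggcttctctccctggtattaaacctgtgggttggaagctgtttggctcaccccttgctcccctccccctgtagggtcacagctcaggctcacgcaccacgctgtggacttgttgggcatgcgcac
Uhrf1: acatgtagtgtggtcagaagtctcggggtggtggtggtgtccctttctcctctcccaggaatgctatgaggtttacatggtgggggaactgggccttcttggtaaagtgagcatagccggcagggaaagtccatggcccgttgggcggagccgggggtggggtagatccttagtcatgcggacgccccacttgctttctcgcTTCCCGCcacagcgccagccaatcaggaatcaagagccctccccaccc
Mcm6: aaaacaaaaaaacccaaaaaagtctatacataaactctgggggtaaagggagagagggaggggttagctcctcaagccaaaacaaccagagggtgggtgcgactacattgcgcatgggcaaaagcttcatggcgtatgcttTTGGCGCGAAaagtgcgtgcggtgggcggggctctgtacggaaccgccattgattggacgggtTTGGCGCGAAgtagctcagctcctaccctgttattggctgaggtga

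In the Mcm6 window the 4 matches form 2 overlapping pairs, 1 on each strand, that begin 109 and 106, and 46 and 43, bases before the start. The match of Rfc3 begins 9 bases before its start, that of Prim1 15 and that of Uhrf1 48 bases before. Lig1 holds none in any of its 3 windows. RefSeq promoters were found for 35 of the 43 genes. The E2F core stood in at least 1 window of 16 of the 35 genes (45.7%), against 15.5% of the 10251 genes tested that had a promoter and 9.01% of all 27025 genes in the table. It was found in 10 of the 19 lower genes with a promoter and in 6 of the 16 that did not pass, among the 6 Orc1, Orc3 and Orc4. CCAAT, searched on both strands, stood in 22 of the 35 genes, in 15 of the 19 lower genes and in 7 of the 16 others, against 39.8% of genes tested. The letters TTTGAA or TTCGAA of the cell cycle homology element, which marks many mitotic genes, stood in 7 of the 35 (20%, against 14.5%). In 1 case E2F core letters overlapped another of the searched motifs. These matches are letters in a window and show no binding.

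Agreement between probe sets shows how far a value depends on the probe set chosen. Probe sets of 1 gene read the same RNA on the same 3 arrays, so their agreement does not measure the spread between pools. Of the 93 probe sets 81 passed the filter on dim signal. Fitted one by one across all 27022 kept probe sets, 32 of the 81 were lower, 0 higher and 49 did not pass, where 6.04% of all kept probe sets were lower and 2.79% higher. At an unadjusted p under 0.05 the number higher was also 0, and with no variance trend limma called 0 lower as well. In all, 68 of the 81 had a difference below 0. The brightest probe sets of Orc6, Cdc6, Gins2, Pola1, Pole and Rfc2, which were lower as genes, did not pass the probe-set test. For 25 genes more than 1 probe set was kept. By the mean of both Rptor-null arrays, they all lay below WT in 16 of these genes, all above in 0 and on both sides in 9. Rfc1, among the 16, had probe sets with the Rptor-null arrays on opposite sides of WT. The 9 were Orc2, Orc3, Orc4, Cdt1, Mcm3, Cdc45, Prim2, Rfc2 and Fen1, of which Mcm3 and Rfc2 were among the 26 lower genes. The 5 probe sets of Mcm3 ranged from -0.87 to 0.20, the highest being its dimmest (78.6 and 60.8 in Rptor-null pools, 58.0 in WT).

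**Figure D5:**
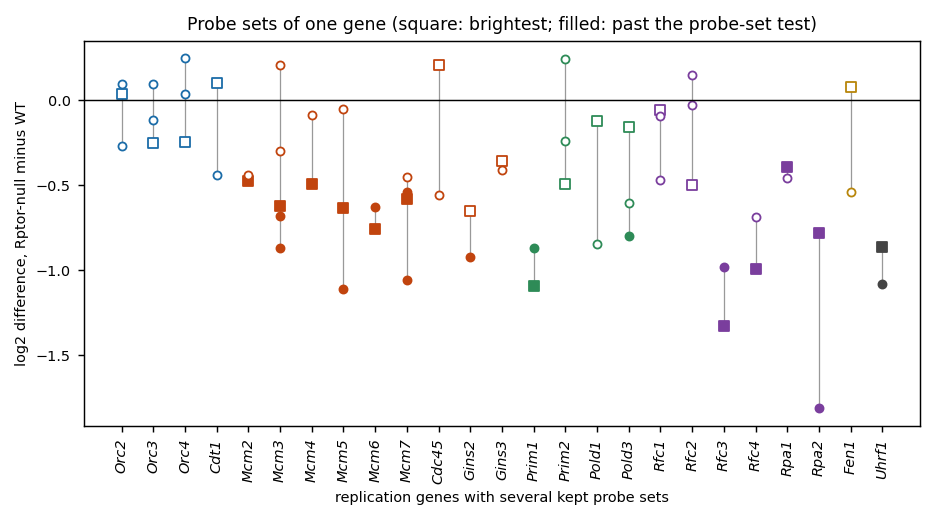
Log2 difference (Rptor-null minus WT) of each kept probe set for the 25 genes with several; squares are the brightest probe set, and filled symbols passed the test across all kept probe sets. Prim1, Rfc3, Uhrf1 and Mcm6 have every probe set below WT and past the test, and Cdt1, Cdc45 and Fen1 have their brightest above 0 and another below it.

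A list of further replication genes, covering the kinase that fires origins, fork protection, clamp unloading and histone supply, was measured beside the set. Of 38 measured, 16 were lower, 0 higher and 22 did not pass, with a median of -0.34; at an unadjusted p under 0.05, 19 were lower and 1 higher. Asf1b, which hands histones to chromatin assembly factor 1, read 363 in both Rptor-null pools and 748 in WT, 2.02-fold lower (adjusted p = 0.0044). Top2a, the topoisomerase that untangles copied DNA, read 794 and 723 against 1568, 2.05-fold lower (adjusted p = 0.0038). Dscc1, of an alternative clamp loader, read 25.2 and 45.3 against 104 (adjusted p = 0.014). Its first Rptor-null value lay under the level of 34.8 below which probe sets were left out as dim, so no fold is given. Pole4, a small subunit of polymerase epsilon, read 480 and 463 against 913, 1.91-fold lower. Chosen after their values were seen, Timeless and Tipin, the fork protection pair, were 1.57-fold and 1.97-fold lower. Cdc7 and Dbf4, the kinase that fires licensed origins and its activator, did not pass, with log2 differences of -0.11 ± 0.14 and -0.035 ± 0.12 (SE).

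The E2F and RB family, the transcription factors and pocket proteins that govern these genes, had 2 of 16 members lower, 0 higher and a median of -0.21. That share is close to the 11.1% of all genes that were lower. After quantile normalization 1 of 16 was lower, with a median of -0.11, where 698 of all 12725 genes were. After median centring 4 of 16 were lower, with a median of -0.25, where 1894 of all genes were. Without either scaling, at an unadjusted p under 0.05, 4 of the 16 were lower and 0 higher. Over all 12725 genes tested, 2761 were lower at that threshold. E2f7, a repressor induced late in the cell cycle, read 53.7 and 38.2 in Rptor-null pools and 94.1 in WT, 1.79-fold lower (adjusted p = 0.027). Tfdp1, the partner with which E2F proteins bind DNA, read 521 and 522 against 715, 1.36-fold lower (adjusted p = 0.041). E2f1, an activator, read 80.8 and 89.0 against 85.8, with the Rptor-null arrays on opposite sides of WT, and E2f2 read 506 and 564 against 566. E2f3 and E2f8 read lower in both Rptor-null arrays and did not pass.

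Across the set 15 of the 26 lower genes passed the test under all 10 alternative settings that could be tested: Gmnn, Mcm5, Mcm6, Mcm7, Gins1, Gins4, Prim1, Pold2, Pcna, Rfc3, Rfc4, Rfc5, Rpa2, Lig1 and Uhrf1. Mcm7 had no probe set left in 1 of these settings, the one without probe sets that can match several transcripts, and passed in the others. With 1 WT array, each test assumes that WT pools vary as the 2 Rptor-null pools do.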

How the data were processed

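RNA of sorted splenic Tfr cells was measured on 3 single-colour arrays: 2 Rptor-null pools and 1 WT pool. The deposited values are linear probe-set intensities made by the authors; the submitters' processing notes name MAS5, and any scaling is not given in the sources used here. Array medians were 55.0 and 54.9 (Rptor-null) and 52.8 (WT). Precision is limited by having 3 arrays.

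GEO's platform annotation gave 1 gene to 34945 of the probe sets, several to 932 and none to 9160, and 64 controls were left out. Intensities became log2(intensity + 16), which understates changes of dim genes. Folds were taken on that scale. Dim probe sets, up to the 40th percentile of level (34.8), were dropped, leaving 27022 probe sets and 12725 genes, each read by its brightest probe set. Differences were fitted with limma 3.58.1 in R 4.3.3 (lmFit, eBayes with trend; 1 residual and 6.46 prior degrees of freedom), two-sided, with Benjamini-Hochberg adjustment over all genes or, for the probe-set fit, all kept probe sets. The fit was tested on simulated data.

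The members and lists were chosen with earlier results of these data known. The rule for named genes gave per-array values of members past the test and at least 2-fold apart in both Rptor-null arrays, of the 3 members of each role whose less changed Rptor-null array lay farthest from WT (both arrays on 1 side), and of any member past the test against the majority. It named members whose probe sets lay on both sides of WT and up to 4 genes of each pathway list. All other per-array values, such as those of Pcna, Cdt1, Rfc1 and E2f1, and the motifs were chosen after values or sequences had been seen. Motifs were searched in RefSeq promoters (GRCm38.p6).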

Additional observations from a re-analysis of the deposited data

How the results depend on the processing

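Recomputed with 1 and 64 as pseudocounts, no filter and a 60th percentile filter, quantile normalization, median centring, averaged probe sets, removal of the _x, _s and _a kinds of probe set (which may match more than 1 transcript), no variance trend and a robust prior, the number of lower replication genes ranged from 16 to 27 and 0 were higher. It was 16 after quantile normalization, when Cdc6, Gins2, Mcm2, Mcm4, Orc6, Pola1, Pole, Rfc2, Rpa1 and Rpa3 were lost and all genes lower numbered 698 against 1409. With no variance trend 20 replication genes were lower, all genes lower and higher numbered 770 and 300, and the member probe sets lower numbered 0. The median difference was -0.47 with a pseudocount of 64, -0.48 after quantile normalization, -0.62 after median centring and -0.54 with the mean of probe sets. That mean put 2 genes at least 2-fold lower in both arrays, a count not made over all genes. Without the _x, _s and _a kinds, 21 member probe sets were lower and 1 further replication gene, the histone-binding Rbbp4, was higher (0.52, adjusted p = 0.049).

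Directions turned for genes that had not passed: Rfc1 after quantile normalization (0.063); Orc2 (-0.0076) and Orc5 (-0.025) after median centring; Cdc45 (-0.18), Cdt1 (-0.17), Fen1 (-0.23), Orc2 (-0.045) and Orc4 (0.012) with the mean of probe sets; and Cdt1 (-0.44) and Orc4 (0.25) without the _x, _s and _a kinds. The causes were not tested.

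Leaving out either Rptor-null array leaves no residual degree of freedom, so no test was run. The median then ranged from -0.57 to -0.53. The replication genes at least 2-fold lower ranged from 1 to 4, with 4 in the second Rptor-null pool alone. All genes were not counted under that rule. No paired analysis was possible because the WT group has 1 array.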
